A study of Mus musculus with 8 samples.

Results

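Cytosolic ribosomal proteins were examined in ADSCs, the stem cells isolated from adipose tissue, cultured in 2D or as 3D organotypic cultures. Members were the genes with a symbol of the form Rpl or Rps, a number and at most a short suffix, without pseudogenes and the Rps6k kinases. This gave 80 of the 24346 genes listed, 48 of the large subunit (Rpl) and 32 of the small subunit (Rps). Total RNA from primary cultures of gonadal fat of wild-type male BALB/c mice, 12 weeks old, was depleted of ribosomal RNA and sequenced in 8 libraries. The 2D group held mice 2, 3, 4 and 5, grown as conventional monolayers, and the 3D group held mice 1, 4, 5 and 7, grown in Matrigel, a basement membrane gel. Mice 4 and 5 gave a library of each culture type, and the labels record no other allele. In the study's 3D cultures the medium also varied, with serum or with conditioned media holding Wnt ligand and R-spondin in several amounts, and the medium of each sequenced 3D library is not given in the sources used here. Gel, medium and culture type can therefore not be told apart. A label of the 3D library of mouse 1 is written in another pattern than those of the other libraries, and its group was taken from its title. Whether its culture differed is not given in the sources used here. The values were FPKM, fragments per kilobase of transcript scaled to the mapped fragments of the library, from which the depth was estimated at 14450000 to 16900000 fragments per library.

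The cytosolic ribosome is made of a large and a small subunit, each built from ribosomal RNA and a set of proteins that are nearly all present in a single copy per ribosome. Their mRNAs are among the most abundant of a growing cell and typically begin with a tract of pyrimidines, the TOP motif, through which mTOR and LARP1 control their translation. Some members have a paralog that can replace them in some tissues, and a few, such as Rpl5 and Rpl11, also bind the p53 regulator MDM2 when ribosome assembly fails.

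The label of both groups was mesenchymal stem cells, and the defining markers set the groups apart. The 12 stromal markers summed to 2172 to 5495 FPKM in the 2D libraries and to 5.21 to 10.2 FPKM in the 3D libraries, where Dcn, Lum and Pdgfrb were listed at 0 in every library. The 14 epithelial markers summed to 32.8 to 783 FPKM in 2D and to 2271 to 2730 FPKM in 3D. The 12 cycling genes summed to 192 to 560 FPKM in 2D and to 75.4 to 178 FPKM in 3D. Of the lists, 11 of 12 stromal and 9 of 12 cycling genes fell and 13 of 14 epithelial genes rose (limma, adjusted p below 0.05). The 5 mesothelial markers summed to 28.2 to 1630 FPKM in 2D and to 75.1 to 158 FPKM in 3D, and 1 of them rose, Krt19, which is also on the epithelial list. Msln, a mesothelial surface protein, was at 256 and 785 FPKM in 2D of mice 3 and 4 and at 0.182 to 30.2 FPKM in the other libraries. The 10 immune and endothelial markers summed to 1.99 to 22.2 FPKM in 2D and to 7.18 to 38.7 FPKM in 3D. Of these 1 rose, the macrophage marker Cd68, from 0.562 to 2.86 FPKM in 2D to 6.66 to 32.3 FPKM in 3D (log2 fold change 2.19, limma adjusted p = 0.0133), highest in mouse 4, while Ptprc stayed below 0.1 FPKM in every library. Adipocyte markers summed to 6.19 to 43.4 FPKM in 2D and to 0.102 to 0.232 FPKM in 3D, and 1 of 4 tested fell, Lpl. The part of these cell types and of proliferation in the ribosomal protein values below was not tested, and fewer cells of a type cannot be told apart from less RNA per cell in these bulk samples.

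A run of at least 6 pyrimidines (C or T, on the sense strand) within 15 bases of the annotated start was present in 34 of the 60 members with an entry in the RefSeq table (56.7%), 20 of 37 large-subunit members (54.1%) and 14 of 23 small-subunit members (60.9%). The same held for 7837 of all 27025 genes of the table (29%). The windows of 5 members that were called in the comparison of the cultures are printed as 30 bases from 5′ to 3′ with the longest run of at least 6 pyrimidines in capitals (RefSeq, GRCm38.p6). They lie at chr4:152324421-152324450 on the plus strand (Rpl22), chr11:68901551-68901580 on the plus strand (Rpl26), chr7:109519180-109519209 on the plus strand (Rpl27a), chrX:102189377-102189406 on the minus strand (Rps4x) and chr4:86857353-86857382 on the minus strand (Rps6). For each gene the most upstream RefSeq start was used, so a run at another start is not counted. Some windows, those of Rpl22, Rpl26, Rpl27 and Rpl37a among them, end before the GENCODE gene start. That of Rpl22 ends at chr4:152324450, far before the GENCODE start at 152325742, so it cannot show how the Rpl22 mRNA begins. Such genes are still counted by their window.
Rpl22: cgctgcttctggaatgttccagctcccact
Rpl26: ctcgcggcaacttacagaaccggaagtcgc
Rpl27a: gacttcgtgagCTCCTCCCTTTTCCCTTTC
Rps4x: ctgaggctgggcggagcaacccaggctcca
Rps6: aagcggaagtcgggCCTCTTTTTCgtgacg
Rpl27a and Rps6 held such a run, and Rpl22, Rpl26 and Rps4x held none in this window. Among the members with an entry and above 1 FPKM in every library, 33 with a run had a median log2 fold change of 0.04 between 3D and 2D on the normalized scale described below, and 24 without a run had a median of 0.11.

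As deposited, the members were among the highest genes of every library. Averaged over the 8 libraries, 41 of 48 large-subunit and 29 of 32 small-subunit members reached 100 FPKM, and 16 and 19 reached 1000 FPKM. The highest mean was that of Rpl41, the shortest ribosomal protein, at 3421 to 4509 FPKM in 2D and 1965 to 3331 FPKM in 3D. It led the members in every 2D library and in 3D of mouse 1, while Rps26 was above it in 3D of mouse 4 (3493 FPKM) and Rps21 in 3D of mice 5 and 7 (2004 and 2291 FPKM). In 3D, Rpl41 and these members were thus not separated by the spread between libraries. Rpl38 (mean 2472 FPKM) and Rpl39 (1961 FPKM) followed in the large subunit, and Rps26 (2531 FPKM), Rps21 (2281 FPKM) and Rps12 (2275 FPKM) led the small subunit. The ranges of these 3 small-subunit members overlapped, so their order was not separated by the spread between libraries. Over the 76 members above 1 FPKM in every library and with a protein-coding transcript in GENCODE, the mean level in 2D and that in 3D correlated at a Pearson r of 0.977 and a Spearman rho of 0.973, a description across genes that share libraries.

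**Figure D1:**
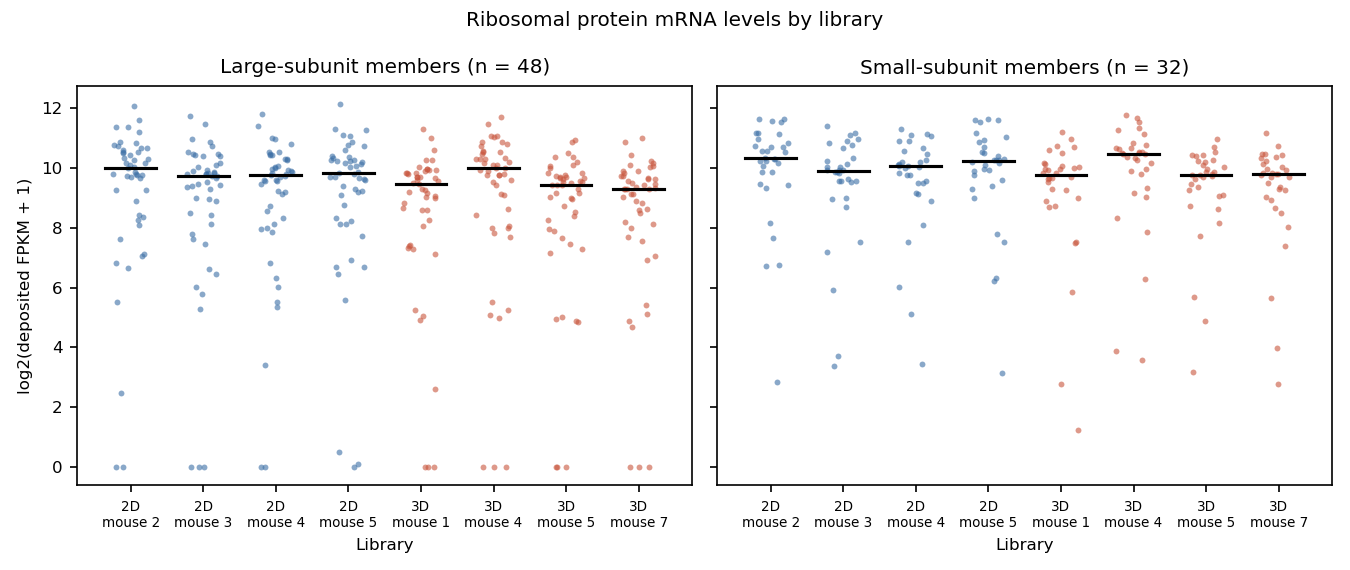
Level of every member in each library, as log2(deposited FPKM + 1), for the 48 large-subunit (left) and 32 small-subunit members (right), with blue points for 2D, red points for 3D and black bars at the median of the members above 1 FPKM. The 3D library of mouse 4 sits at the height of the 2D libraries, and the other 3D libraries sit lower.

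The lowest members were paralogs and genes with near-identical copies. Rpl10l, a testis-expressed paralog of Rpl10, was listed at 0 in all 8 libraries and was not tested, which left 79 members, 47 large and 32 small. Rpl3l, the striated muscle paralog of Rpl3, was above 0 in a single library, 2D of mouse 5, at 0.0707 FPKM. Rpl39l was listed at 4.56, 0, 9.63 and 0.398 FPKM in 2D of mice 2, 3, 4 and 5 and at 0 in every 3D library, and the difference did not pass the test (limma, adjusted p = 0.0956, range over the alternatives 0.0229, with a pseudocount of 0.1, to 0.245).

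Rps27 and Rpl34 were low where another row of their sequence family was high. Rps27 was at 5.81 to 13.6 FPKM, while Rps27rt, a retrogene copy, was at 2556 to 4896 FPKM, and 98.6% of the 50-base words of the Rps27 mRNA occurred in other genes. Rpl34 was at 30.2 to 98.9 FPKM, while the pseudogene row Rpl34-ps1 was at 902 to 1670 FPKM. The values of Rps27 and Rpl34 are therefore uncertain, as reads of a gene and its copy could be divided either way by the mapping. The start windows of Rps27 (chr3:90213634-90213663, minus strand) and Rps27rt (chr9:114982725-114982754, minus strand) are printed as a gene and its copy at different loci.
Rps27: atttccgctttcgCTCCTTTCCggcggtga
Rps27rt: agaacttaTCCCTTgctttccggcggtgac
Copies are common in this family, and the share of 50-base words found in other genes ranged among the 9 members called in the comparison from 9.03% for Rpl7l1 to 84.6% for Rps6. Across 76 members this share and the level had a Spearman rho of 0.07.

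The summed level of the members was lower in 3 of the 4 3D libraries than in any 2D library. Large-subunit members summed to 52697, 40953, 42422 and 47250 FPKM in 2D of mice 2, 3, 4 and 5, and to 31451, 48181, 30941 and 29832 FPKM in 3D of mice 1, 4, 5 and 7. Small-subunit members summed to 45857, 33369, 34613 and 41875 FPKM in 2D and to 28398, 44406, 27479 and 27216 FPKM in 3D. The 3D library of mouse 4 stood within the 2D range in both subunits, so the groups overlapped. The sum over all members was 84759 ± 11224 FPKM (SD, n = 4) in 2D and 66976 ± 17113 FPKM (SD, n = 4) in 3D, and the 3D mean without mouse 4 was 58439 FPKM.

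The animals that gave both cultures moved in opposite directions on the deposited values. In mouse 4, 35 of 47 large-subunit and 29 of 32 small-subunit members had a higher deposited level in 3D, with a median log2 ratio of 0.17 and 0.42. In mouse 5, 45 and 28 members had a lower level in 3D, with medians of -0.53 and -0.49. After quantile normalization both animals had more members higher in 3D, 33 large and 21 small in mouse 4 (medians 0.10 and 0.26) and 35 and 23 in mouse 5 (medians 0.13 and 0.22), so the opposite direction depended on the scale. Proliferation genes also differed between these animals, as the cycling sum was 192 FPKM in 2D and 178 FPKM in 3D of mouse 4, and 560 and 107 FPKM in mouse 5. The part of this difference in the ribosomal protein values was not tested.

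Short RNA genes took an unequal share of the FPKM totals. Genes under 300 nt held 19.5% to 40.6% of the total in 2D and 28.7% to 63.2% in 3D. With these genes left out of the total, the members made up 13.3%, 12.5%, 12.6% and 13.6% of it in 2D of mice 2, 3, 4 and 5. In 3D they made up 11.6% ± 2.48 (SD, n = 4), with 11.9%, 14.9%, 10.05% and 9.37% in mice 1, 4, 5 and 7. The 3D libraries thus lay on both sides of the 2D range, and their spread was wider.

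**Figure D2:**
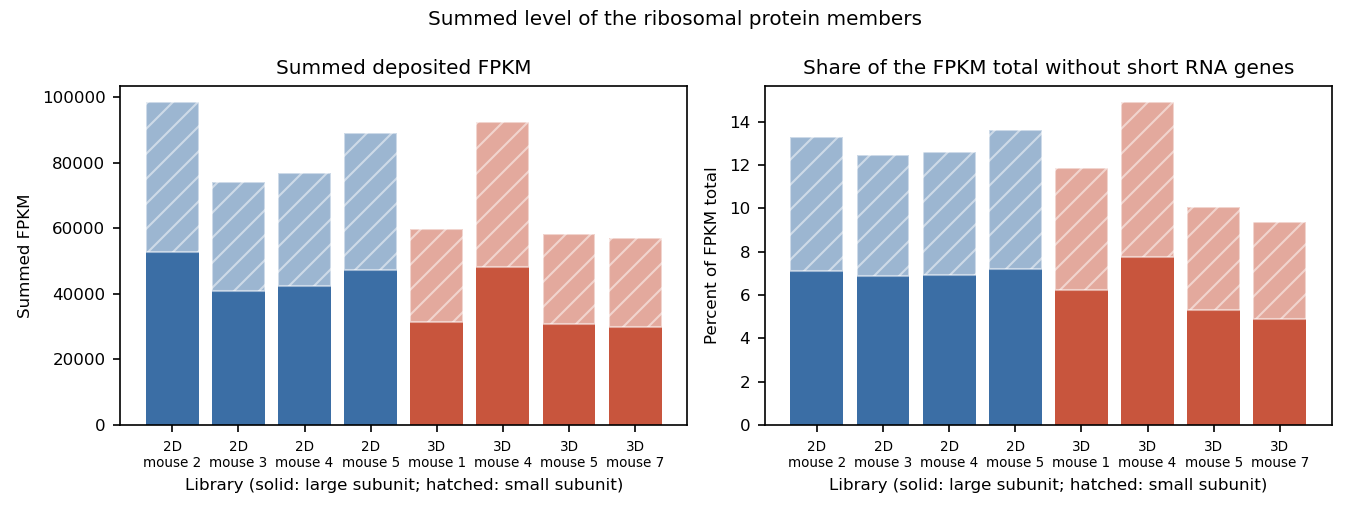
Summed level of the large-subunit (solid) and small-subunit (hatched) members in each library, in deposited FPKM (left) and as a percent of the FPKM total without genes under 300 nt (right), with 2D in blue and 3D in red. On the left the 3D library of mouse 4 reaches 92588 FPKM, and the other 3D libraries stay between 57048 and 59849 FPKM.

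Large-subunit sums exceeded small-subunit sums in every library. The log2 ratio of the large to the small sum was 0.174 to 0.295 in 2D and 0.118 to 0.171 in 3D. The deposited ranges did not overlap, but the lowest 2D and the highest 3D ratio, both of mouse 5, were closer than the spread within either group. After quantile normalization the ranges were 0.14 to 0.33 and 0.13 to 0.16, and they overlapped.

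The comparison of 3D with 2D followed the study in using quantile-normalized FPKM, which gives every library the same distribution of values. Fold changes are on the scale of log2(normalized FPKM + 1), and a gene was called where limma's adjusted p over 18862 genes was below 0.05. Called genes made up 41.5% of all genes tested, 21.2% higher and 20.3% lower in 3D, and 49.1% of the 772 genes with a mean of at least 100 normalized FPKM. They made up 29.2% of the 178 genes with a mean of at least 500 normalized FPKM, of which 59 were members. That share thus includes the members themselves, and the share of the other genes at this level was not computed. In the large subunit 3 of 47 members rose (Rpl22, Rpl27a and Rpl7), 3 fell (Rpl26, Rpl30 and Rpl7l1), and 41 did not pass, with a median log2 fold change of 0.02 and quartiles of -0.12 and 0.21. In the small subunit 3 of 32 members rose (Rps4x and Rps6 among them), 0 fell, 29 did not pass, and the median was 0.14, while 6 of the 32 had an unadjusted p below 0.05. The share called was 12.8% in the large and 9.38% in the small subunit, both below the share of all genes. With the mouse as a block, which left 1 residual degree of freedom, limma called 0 of all genes (5216 at an unadjusted p below 0.05), and the 9 called members had adjusted p-values of 0.130 to 0.433. With the mouse as a random block 2 large-subunit and 3 small-subunit members rose and 3 and 0 fell, beside 3948 of all genes higher and 3779 lower.

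Libraries of the cultures did not overlap for 42.5% of all genes on the normalized scale, 21.6% higher and 20.9% lower. In the large subunit 4 members lay higher (Rpl22, Rpl23, Rpl3 and Rpl7) and 6 lower (Rpl26, Rpl30, Rpl35, Rpl41, Rpl7l1 and Rpl8), and in the small subunit 5 lay higher (Rps21, Rps4x, Rps6 and Rps9 among them) and 1, Rps2, lower. On the deposited values, where 45.5% of all genes did not overlap (23.6% higher and 21.8% lower), 0 members lay higher, and 6 large-subunit and 2 small-subunit members lay lower.

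The direction of many members depended on the scaling, that of the called Rps6 and Rpl27a included. With the values as deposited, where 44.3% of all genes were called (22.7% higher and 21.6% lower), 0 large-subunit members rose and 7 fell (Rpl26, Rpl27, Rpl29, Rpl30, Rpl34, Rpl7l1 and Rpl8), and the median was -0.35. In the small subunit 0 rose and 2 fell (Rps2 and Rps27l), with a median of -0.22. A log2 fold change below 0 was found for 45 of 47 and 29 of 32 members. Without the 3D library of mouse 4, which stood apart in its sums, 21 large-subunit (44.7%) and 4 small-subunit members (12.5%) fell on the deposited values and 0 rose, where 40.9% of all genes were called, 21.3% higher and 19.6% lower. Scaling by median ratios gave the same counts as the deposited values, with 44.3% of all genes called, 22.5% higher and 21.7% lower, and without that library 40.9%, 21.4% and 19.5%. Scaled to the members' own median, 1 large-subunit member rose and 4 fell and 1 small-subunit member rose and 1 fell, beside 35.5% of all genes called, 22.7% higher and 12.8% lower. With short RNA genes left out before normalization, where 41.9% of genes were called (21.6% higher and 20.4% lower), 6 large-subunit members rose and 3 fell, and 6 small-subunit members rose and 0 fell.

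The shift between the scales was shared by other highly expressed genes. From the deposited to the normalized values, the log2 fold changes of the 178 genes with at least 500 normalized FPKM moved up by a median of 0.36. Of these genes 59 were members. Those of the 594 genes from 100 to 500 normalized FPKM, of which 11 were members, moved up by a median of 0.56.

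**Figure D3:**
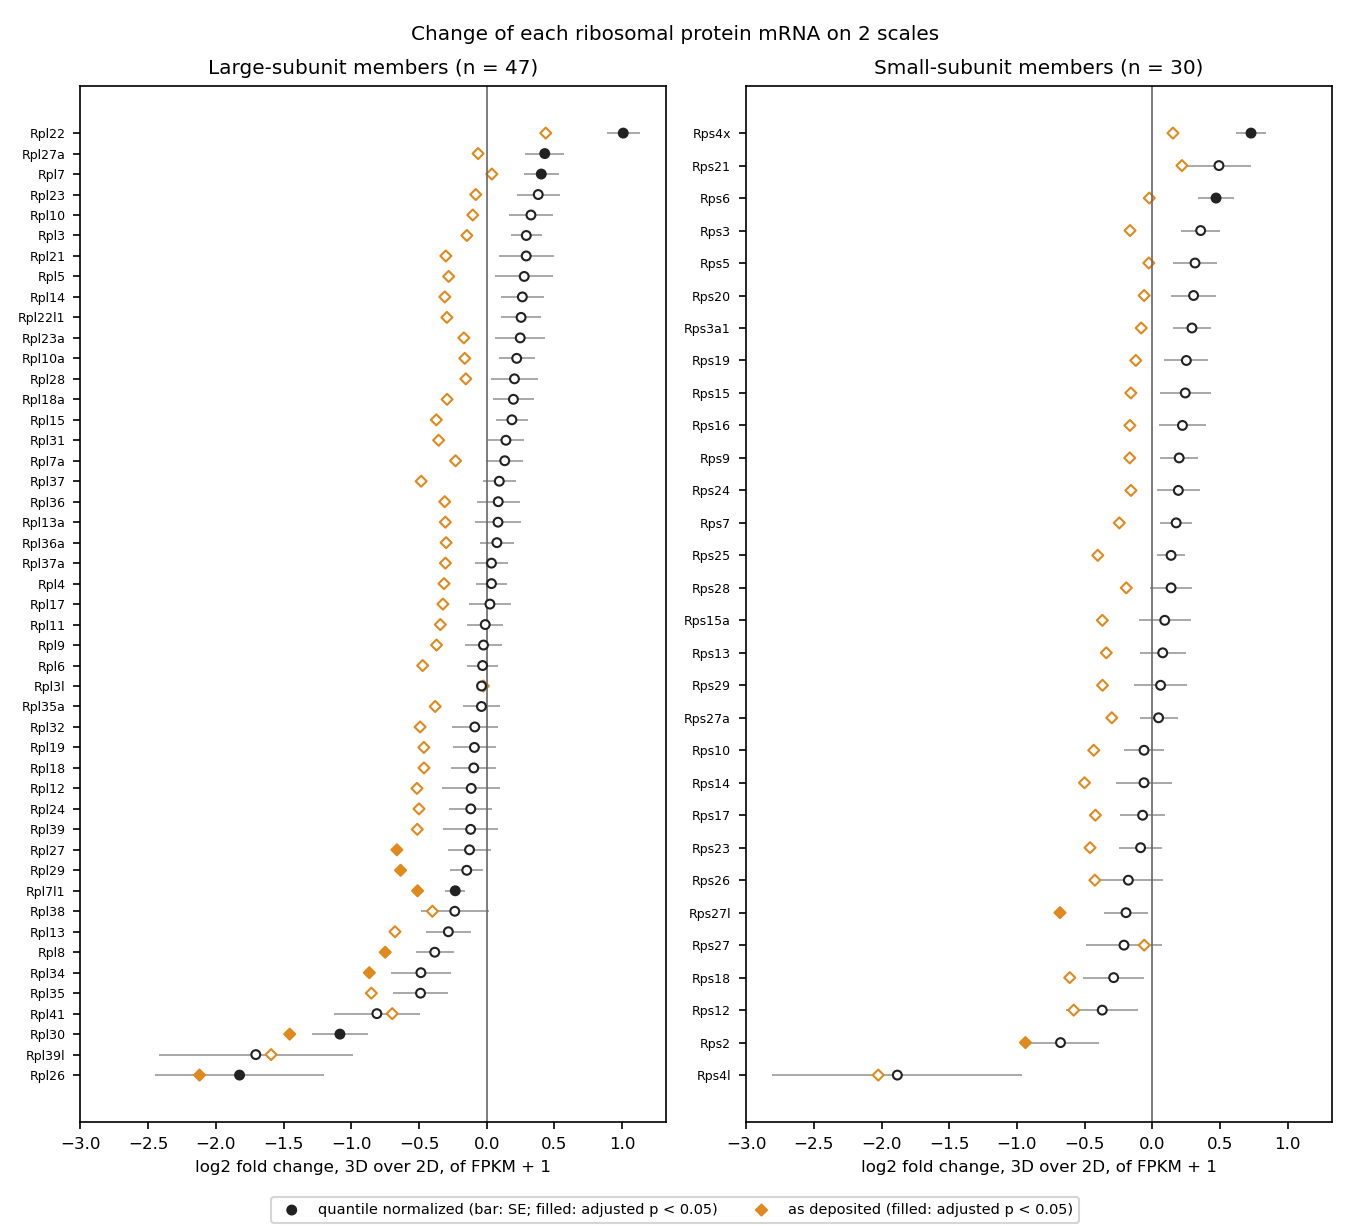
Log2 fold change of FPKM + 1, 3D over 2D, for each large-subunit (left, n = 47) and small-subunit member shown (right, n = 30), as black circles with SE bars for quantile-normalized values and orange diamonds for the values as deposited, filled where the adjusted p was below 0.05. The diamonds lie to the left of the circles for nearly all members, and Rpl30, Rpl26 and Rpl7l1 are filled on both scales.

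Rpl22, an RNA-binding protein of the large subunit needed for T cell development, had the largest rise of the members. Its gene lies at chr4:152325742-152334071 (plus strand, GRCm38), and 24.5% of its 50-base words are shared with other genes. Rpl22 was at 109, 88.9, 96.3 and 96.6 normalized FPKM in 2D of mice 2, 3, 4 and 5 and at 203, 241, 180 and 172 normalized FPKM in 3D of mice 1, 4, 5 and 7. Every 3D library was above every 2D library, and the log2 fold change was 1.01 (SE 0.12, limma adjusted p = 4.7e-04). On the deposited values the change was 0.44 (adjusted p = 0.0655), with overlapping libraries.

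Rps4x, the X-linked form of a small-subunit protein, rose by a log2 fold change of 0.73 (SE 0.11, limma adjusted p = 0.00144). It was at 155, 131, 158 and 144 normalized FPKM in 2D and at 229, 264, 277 and 211 normalized FPKM in 3D, without overlap. On the deposited values its change was 0.15 (adjusted p = 0.420), and 72.2% of its 50-base words occur in other genes.

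Rpl30, a large-subunit protein that also binds its own transcript in yeast, fell on each scale. It was at 105, 51.0, 69.9 and 83.3 normalized FPKM in 2D and at 35.1, 36.5, 30.3 and 37.5 normalized FPKM in 3D. All 3D libraries were below all 2D libraries and close to each other, and the 2D libraries differed more among themselves. The log2 fold change was -1.08 (SE 0.21, limma adjusted p = 0.00419), and -1.45 on the deposited values (adjusted p = 0.00253). Its gene lies at chr15:34440505-34443640 on the minus strand, and 47.8% of its 50-base words occur in other genes. How the mapping divided such reads was not tested.

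Rpl26, a large-subunit protein that binds the p53 mRNA, had the largest fall among the called members, and 1 library set its size. It was at 90.8, 80.5, 57.2 and 82.8 normalized FPKM in 2D and at 4.41, 41.9, 35.5 and 26.3 normalized FPKM in 3D, where mouse 1, the library with the label of another pattern, was far below the others. The log2 fold change was -1.83 (SE 0.62, limma adjusted p = 0.0480), and -1.17 (adjusted p = 0.00484) without that library. On the deposited values it was -2.12 (adjusted p = 0.0165), and the groups did not overlap on either scale. Of the 50-base words of Rpl26, 71.3% occur in other genes, and how the mapping divided such reads was not tested.

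The other called members changed less. Rps6, the substrate of the S6 kinases, was at 501 ± 29.3 normalized FPKM in 2D and at 700 ± 104 in 3D (SD, n = 4 each), which is 0.47 higher on the log2 scale (limma adjusted p = 0.0241). Rpl27a (0.43, limma adjusted p = 0.0474) and Rpl7 (0.40, limma adjusted p = 0.0394) rose by less, and the range of Rpl7 was 767 to 917 normalized FPKM in 2D and 1050 to 1177 in 3D. None of these 3 was called on the deposited values, where their changes were -0.02 for Rps6, -0.06 for Rpl27a and 0.04 for Rpl7.

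Rpl7l1, a paralog of Rpl7 that takes part in large-subunit assembly, fell while Rpl7 rose. It was at 39.2, 35.1, 36.1 and 40.9 normalized FPKM in 2D and at 31.3, 34.4, 31.4 and 31.0 normalized FPKM in 3D. The log2 fold change was -0.23 (SE 0.07, limma adjusted p = 0.0356). It fell by 0.51 on the log2 scale of the deposited values (adjusted p = 0.00224).

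Leaving out any 1 of the 8 libraries kept the calls of Rpl22 (limma adjusted p up to 0.00221), Rps4x (up to 0.0058) and Rpl30 (up to 0.0144). The call of Rpl26 was kept only without 3D of mouse 1 or mouse 4, and its adjusted p reached 0.104 without 2D of mouse 2. Rps6 was not called without 2D of mouse 3, 4 or 5 or 3D of mouse 4 or 5 (adjusted p up to 0.0586). Rpl27a was called only without 2D of mouse 2 or 3D of mouse 1 (up to 0.113 otherwise), Rpl7 only without 2D of mouse 4 (up to 0.0958), and Rpl7l1 only without 2D of mouse 3 or 4 or 3D of mouse 4 (up to 0.0928). The direction of each of these 8 stayed the same in these fits.

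**Figure D4:**
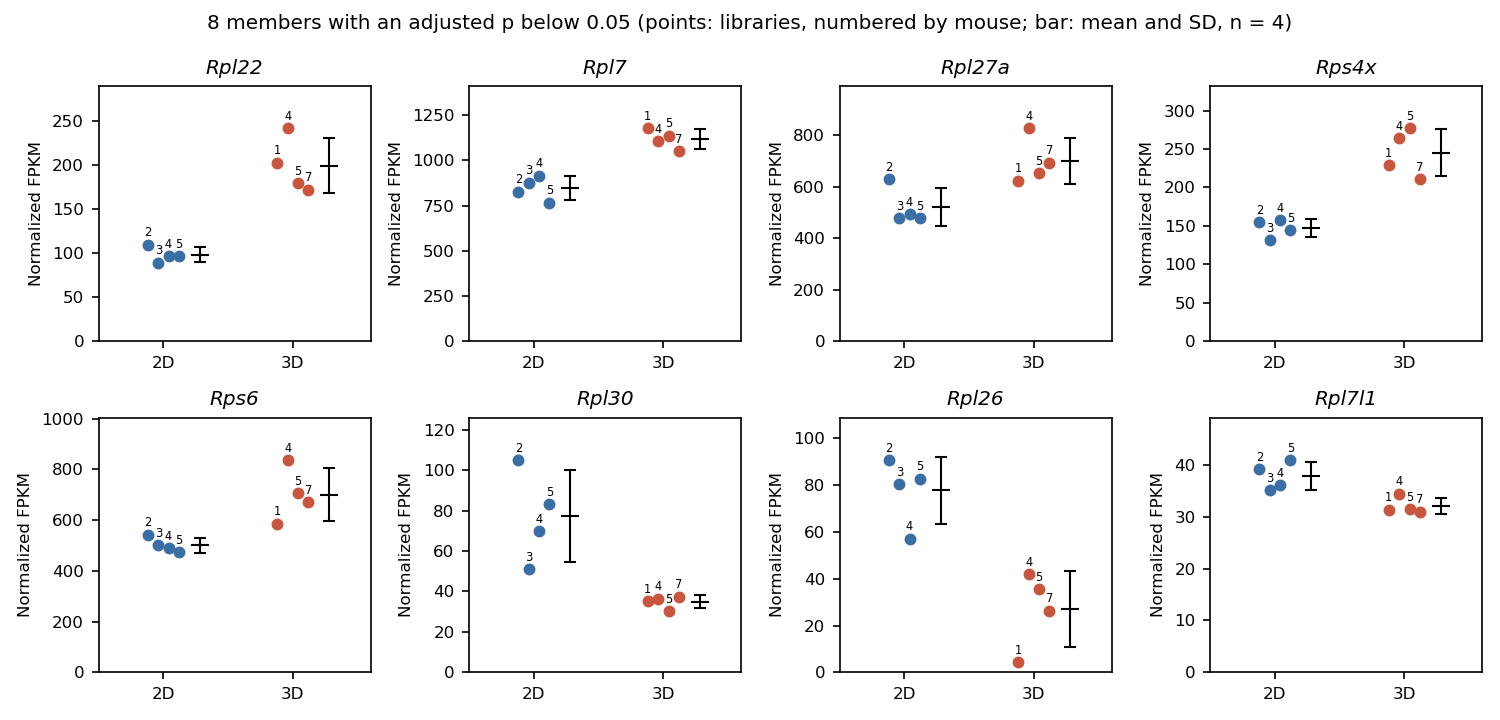
Normalized FPKM of 8 of the 9 members with an adjusted p below 0.05, with points for the libraries numbered by mouse (2D blue, 3D red) and black bars for the mean and SD of 4 libraries. Of these 8, libraries overlap between the cultures for Rpl27a only, and Rpl26 in 3D of mouse 1 lies at 4.41 normalized FPKM.

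Ratios between a member and its paralog do not change when a library is multiplied by a single factor. Quantile normalization can change them, and the ratios here are of deposited FPKM. The 4 pairs with measurable members were chosen after their values were seen, and with 4 against 4 libraries the smallest 2-sided exact permutation p is 0.0286. The log2 ratio of Rpl22 to Rpl22l1 was -1.30, -1.81, -1.15 and -1.41 in 2D and -0.75, -0.10, -0.75 and -1.13 in 3D, so Rpl22l1 was the higher of the pair in every library and by less in 3D. The difference was 0.73 (exact permutation p = 0.0286, 0.0571 adjusted over 4 pairs). Rpl22l1 itself was at 261 ± 39.7 normalized FPKM in 2D and 311 ± 43.8 in 3D (SD, n = 4), a difference that did not pass the test (limma adjusted p = 0.202).

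The log2 ratio of Rpl7 to Rpl7l1 was 4.32 to 4.56 in 2D and 4.90 to 5.36 in 3D, a difference of 0.56 (exact permutation p = 0.0286, 0.0571 adjusted). For Rps4x over Rps4l the difference was 2.40 (exact permutation p = 0.0857, 0.114 adjusted), with Rps4l spread from 12.1 to 104 FPKM in 2D and from 1.37 to 28.2 FPKM in 3D. For Rps27 over Rps27l it was 0.61 (exact permutation p = 0.114, 0.114 adjusted), where the value of Rps27 is uncertain because of its copy, as given above. No pair passed after adjustment.

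**Figure D5:**
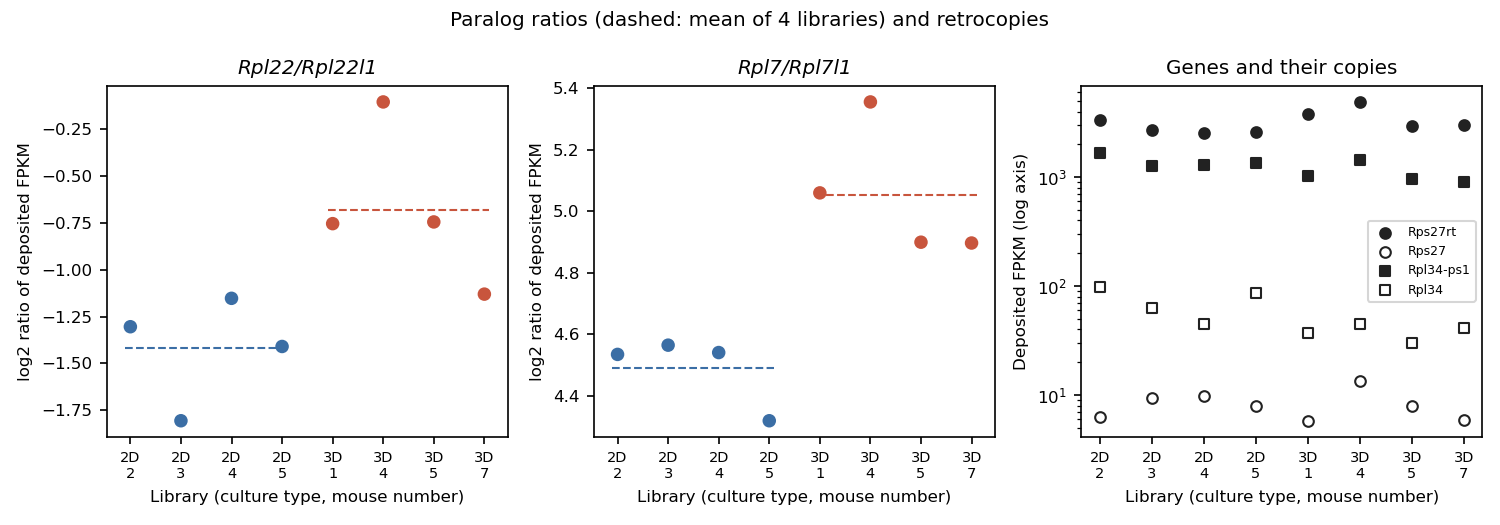
Log2 ratio of the deposited FPKM of Rpl22 to Rpl22l1 (left) and of Rpl7 to Rpl7l1 (middle) in each library, with 2D in blue, 3D in red and dashed lines at the group means, and deposited FPKM on a log axis of Rps27, Rpl34 and their copies (right). Both ratios are higher in every 3D library than in every 2D library, and the copies lie far above the genes in every library.

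Levels relative to the other members change little when a library is multiplied by a single factor. Each member's log2(FPKM + 1) was taken less the median of the members above 1 FPKM in that library. In the large subunit 2 members had 3D libraries above all 2D libraries (Rpl22 and Rpl7) and 11 had them below, Rpl30, Rpl26, Rpl8, Rpl35 and Rpl41 among them. In the small subunit 4 lay above (Rps21, Rps3a1 and Rps6 among them) and 4 below (Rps10, Rps14, Rps18 and Rps2). Of all genes, 31.2% did not overlap on this measure, 19.9% higher and 11.4% lower.

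Of 10 members with roles outside the ribosome, 1 rose (Rps6), 1 fell (Rpl26) and 8 did not pass. Of the MDM2-binding members, Rpl5 had a log2 fold change of 0.28 (limma adjusted p = 0.343), Rpl11 one of -0.01 (adjusted p = 0.952) and Rpl23 one of 0.38 (adjusted p = 0.0942), beside the fall of Rpl26. Rps3, which also takes part in DNA repair, was at 0.36 (limma adjusted p = 0.0873), and Rps27a, made as a fusion to ubiquitin, at 0.05 (adjusted p = 0.808). Rpl13a, Rpl38 and Rpl10a, for which roles in selective translation have been described, were at 0.08, -0.24 and 0.22, and none of them was called.

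Of the 8 ribosomal proteins with symbols outside the rule, 0 rose and 1 fell, with a median of -0.05. Rpsa, the small-subunit protein also known as laminin receptor, fell by 0.68 on the log2 scale (limma adjusted p = 0.0103), with 926 ± 129 normalized FPKM in 2D and 579 ± 80.5 in 3D (SD, n = 4 each). All its 3D libraries lay below its 2D libraries. The stalk proteins Rplp0, Rplp1 and Rplp2 were at -0.15, -0.86 and 0.19, Fau, made as a fusion to a ubiquitin-like protein, at 0.05, Rpl36al at 0.18 and Gnb2l1 (Rack1) at -0.22, and none of them was called.

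Among the factors that assemble the ribosome, those called for the small subunit all fell. Of 32 small-subunit assembly genes 0 rose and 12 fell, with a median of -0.40, and of 32 large-subunit assembly genes 5 rose and 11 fell, with a median of -0.36. Bysl, needed for small-subunit maturation, went from 10.8 ± 2.56 to 4.73 ± 1.18 normalized FPKM (SD, n = 4; limma adjusted p = 0.00654), and Cirh1a (Utp4) fell by 0.79 on the log2 scale (adjusted p = 0.00553). Bop1 and Nip7 of the large-subunit pathway fell by 0.85 and 0.74, while Mdn1 and Rrp1 rose by 0.75 and 0.74. On the deposited values 17 small-subunit assembly genes fell and 0 rose. In 3D these libraries also held less of the cycling genes, as given above, and that part was not tested.

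RNA polymerase I and translation factors moved in both directions. Of 18 polymerase I genes 4 rose and 3 fell, among them Taf1a (log2 fold change 1.24) and Polr1c (0.91), which rose. Of 24 initiation factor genes 6 rose and 9 fell, and on the deposited values 0 rose and 15 fell. Eif2s1, the alpha subunit of eIF2, fell by 1.03 on the log2 scale (limma adjusted p = 2.6e-04), and Eif4a2, a helicase of eIF4F, rose by 1.15 (adjusted p = 0.0101). Of 14 genes of elongation and other TOP mRNAs 3 rose and 3 fell, Eif3f (1.25) and Pabpc1 (0.75) among the former. The latter included Vim, an intermediate filament gene of stromal cells, at -9.08.

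In the mTOR pathway that controls TOP mRNAs, 2 of 19 genes rose and 3 fell. Mtor was at 8.39 ± 0.52 normalized FPKM in 2D and at 13.5 ± 0.39 in 3D (SD, n = 4 each; limma adjusted p = 7.5e-04), without overlap of the libraries. Rheb, its activating GTPase, fell by 1.40, and Eif4ebp1, a repressor of cap-dependent translation, fell by 1.65 on the log2 scale. Of the 10 other nucleolar genes 2 rose and 1 fell, with Gltscr2 (Nop53) at 1.28 and Nolc1 at -0.78.

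Mitochondrial ribosomal proteins, which form the separate ribosome of that organelle, served as the nearest other set. Of 77 genes 7 rose and 23 fell, with a median of -0.16, beside 21.2% of all genes higher and 20.3% lower. On the deposited values 4 rose and 36 fell, beside 22.7% of all genes higher and 21.6% lower. Mrpl20 fell by 0.88 (limma adjusted p = 0.0076) and Mrpl38 rose by 1.21 (adjusted p = 0.00462). Of 7 ribosomal protein pseudogene rows 0 rose and 1, Rps15a-ps4, fell. On the normalized scale the share called was 12.8% and 9.38% in the cytosolic subunits and 30 of 77 in the mitochondrial set. Of all genes 41.5% were called, and the difference between the sets was not tested.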

How the data were processed

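Directional libraries of total RNA depleted of ribosomal RNA were sequenced as paired ends by the authors, who trimmed the reads, mapped them with TopHat (mm10 per the submitters' processing notes) and computed FPKM with Cufflinks. The deposited FPKM values were used as given and hold no counts. The steps of FPKM values lay within 0.1 of a whole fragment for 64.1% to 81.3% of the low values. This served only to estimate depth, and no count test was run. Their FPKM were not quantile normalized as deposited, and this step of the study was repeated here.

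After 5484 genes at 0 in every library were left out, 18862 genes were quantile normalized, converted to log2(FPKM + 1) and fitted with limma 3.58.1 (R 4.3.3, intensity trend, no covariates, Benjamini-Hochberg). The fit was tested on simulated data drawn for each gene apart from a normal distribution, so shifts of scale between libraries were not part of that test. Paralog ratios were compared with exact permutation tests. Gene positions and shared 50-base words came from GENCODE M21 (80 of 80 members matched), start windows from RefSeq.

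Mice 4 and 5 gave both cultures, so their numbers pair the samples by animal. The deviations of their 2D and 3D libraries from the group means correlated at -0.05 and -0.11 over 12577 genes. With the mouse as a block, 1 residual degree of freedom remained.

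Named were the called members, the 3 highest and 3 lowest of each subunit, the paralogs, members with other roles, ribosomal proteins outside the rule and the largest changes of each list. A few of these genes count in the totals but are not reported here by name or value. The members, lists and tests were chosen with earlier results of these data known. The libraries are separate cultures per mouse, and p-values measure the spread between them.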

Additional observations from a re-analysis of the deposited data

Results flagged for a closer look

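Of 84 groups of 4 libraries examined, 7 held a library far from the other 3, where chance flags about 1 in 20. The 3D library of mouse 4 stood apart in the summed level of the large subunit (48181 FPKM against 29832 to 31451 FPKM) and of the small subunit (44406 FPKM against 27216 to 28398 FPKM). There Rpl7l1 reached 34.4 normalized FPKM, against 31.0 to 31.4 in the other 3D libraries.

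In the 2D library of mouse 2, Rpl27a was at 630.0 normalized FPKM against 478 to 494 in the others, and Rpl3 at 719 against 623 to 635. In the 2D library of mouse 5, Rpl23 was at 501 normalized FPKM against 687 to 706, and Rpl3l at 0.112 where the others were listed at 0.

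The animals with both cultures differed in direction on the deposited values. The log2 ratio of the 3D to the 2D sum was 0.18 in mouse 4 and -0.61 in mouse 5 for the large subunit, and 0.36 and -0.61 for the small subunit. For all members together it was 0.064 and 0.12 after quantile normalization and -0.13 and -0.47 as a percent of the FPKM total, the same sign in both animals. As a percent of the total without genes under 300 nt it was 0.24 and -0.44, of opposite sign. For the large subunit alone after quantile normalization it was -0.0035 and 0.11. The difference was not tested, as each animal gave 1 library per culture.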

How the results depend on the processing

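With the values as deposited or scaled by median ratios, 0 large-subunit members were higher and 7 lower in 3D, with medians of -0.35 and -0.36, and 0 small-subunit members were higher and 2 lower, with medians of -0.22 and -0.23. In both without 3D of mouse 4, an alternative chosen after seeing the data, 0 were higher and 21 large and 4 small were lower, with large medians of -0.51 and -0.50 and small medians of -0.39 and -0.39, beside 3986 of all genes higher and 3676 lower, and 4006 and 3645. Scaled to the members' median, 1 large member was higher and 4 lower, 1 small member was higher and 1 lower, and 4288 of all genes were higher and 2411 lower. With short RNA genes left out, 6 members of each subunit were higher, and the small median was 0.26. Without the intensity trend 4 large members were higher and 5 lower, and 7 small ones were higher. Of 18862 genes, 4009 were higher and 3813 lower in that fit. With a mean of at least 1 FPKM, 4 large members were higher and 5 lower, and 5 small ones were higher and 1 lower. Of the 12577 genes of that fit, 3542 were higher and 3461 lower. Relative to the median of their own subunit, 7 small members lay lower in 3D without overlap.

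With the mouse as a fixed replicate block, 0 of all genes were higher and 0 lower, 0 large members were higher and 0 lower, 0 small ones were higher, and the small median was 0.27. That fit has 1 residual degree of freedom. With only mice 4 and 5, 1788 of all genes were higher and 1432 lower, 1 large member was higher and 1 lower, 1 small member was higher, and the small median was 0.26. Leaving out 1 library at a time gave 1 to 3 large members higher and 1 to 3 lower, and 1 to 4 small members higher. Of all genes 3393 to 4051 were higher and 3204 to 3835 lower in these fits.

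Signs reversed on the deposited, median-ratio, deposited without 3D of mouse 4 and median-ratio without it for Rpl27a (-0.064, -0.071, -0.26 and -0.26), Rps6 (-0.022, -0.029, -0.23 and -0.22), Eif3m (-0.040, -0.047, -0.19 and -0.19), Rpl5 (-0.28, -0.29, -0.49 and -0.48) and Fau (-0.30, -0.31, -0.50 and -0.50), and on the last pair alone for Rpl7 (-0.090 and -0.087). Rpl5 and Fau passed the test on the last pair only. Other members, not called on either scale, also changed sign. A log2 fold change below 0 was found for 23 large-subunit and 11 small-subunit members on the normalized scale. On the deposited values it was found for 45 and 29. The cause of these shifts was not tested. FPKM give no counts, so where a low member was listed at 0, as Rpl10l in every library and Rpl39l in every 3D library, no fold is given in the text.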
